A study of Mus musculus with 20 samples.

Results

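The transcripts of 1 gene can differ in where they start, which exons they keep and where they end, and this section describes how the split of a gene's RNA over its transcripts differed between obstructed and sham-operated mouse kidneys. Members were all genes for which the transcript-level table lists at least 2 transcripts. These were 6460 of 13807 genes, with 18881 of 26228 transcripts. Of them, 3399 genes had 2 listed transcripts, 1589 had 3 and 1472 had 4 or more. Each transcript's share is its FPKM (fragment counts scaled to transcript length and to the mapped total of the library) divided by the summed FPKM of the gene's listed transcripts in the same kidney, in percent. The table lists protein-coding transcripts whose highest group mean reached 0.5 FPKM, so a share is a share of these alone.

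RNA came from the left kidneys of 20 male mice, each 1 library, taken 7 days after unilateral ureteral obstruction (UUO) or sham surgery. There were 5 mice in each of 4 groups, named KDM6ACtrl sham, KDM6ACtrl UUO, KDM6ATubKO sham and KDM6ATubKO UUO. The KDM6ACtrl mice carry Pax8Cre without a floxed gene. The KDM6ATubKO mice are Kdm6afl/Y with Pax8Cre, which removes the exon encoding the catalytic domain of the H3K27 demethylase KDM6A where Pax8 drives Cre, that is in the tubule epithelium and not in other kidney cells. All 20 mice thus carried the recombinase, and the mice were age-matched, without a stated age for these groups. Here the 10 UUO kidneys were compared with the 10 sham kidneys, with genotype as a covariate.

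Most mammalian genes have more than 1 promoter, splice pattern or cleavage site, and the choice among them can change the protein made. In the kidney, epithelial and mesenchymal cells are known to splice many adhesion and cytoskeletal genes differently, leukocytes use start sites of their own, and injured tubule cells switch on genes that are nearly silent before injury. RNA of the whole kidney averages over all of these cells. A share may therefore move because cells of a type that uses another transcript became more or fewer, because cells of a type made more or less of the RNA, or because the same cells changed their transcript, and these cannot be told apart here.

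The libraries differed in cell makeup by surgery and in detection by genotype. All 10 macrophage markers were higher in every UUO kidney than in every sham kidney, with a summed 24.8 to 57.9 FPKM after sham surgery and 308 to 687 after UUO. Of the 8 fibroblast markers 7 were higher without overlap (summed, 16.2 to 54.8 against 343 to 651 FPKM), and of the 10 proximal tubule markers 9 were lower (15400 to 28000 against 3580 to 12000 FPKM). The summed urothelial markers ranged from 8.69 to 669 FPKM among the UUO kidneys and from 2.78 to 28.5 FPKM among the sham kidneys. No defining marker was at 0 in all kidneys, and the part of cell makeup in the shifts below was not tested. Of the transcripts of member genes, 10.1% to 13.5% were at 0 in the KDM6ACtrl kidneys and 13.9% to 22.7% in the KDM6ATubKO kidneys, without overlap. The highest value belonged to KDM6ATubKO UUO mouse 4, whose share values were under 1% or over 99% for 35% of tested transcripts, against 16.9% to 27.9% in the other 19 kidneys.

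*Kdm6a*, the deleted gene, lay between 2.14 and 3.77 FPKM (summed, median 2.59) in KDM6ACtrl sham kidneys and between 1.05 and 2.04 FPKM (median 1.19) in KDM6ATubKO sham kidneys. After UUO it lay between 3.61 and 4.92 FPKM (median 4.03) in KDM6ACtrl and between 2.55 and 5.06 FPKM (median 4.08) in KDM6ATubKO kidneys, where the genotypes overlapped. Its 3 tested transcripts did not pass the test: Kdm6a-202, the one with the highest mean share in both surgeries, differed by 4.82 points ± 11.5 (SE, adjusted p = 0.725, limma), and Kdm6a-201 and Kdm6a-208 had an adjusted p of 0.836 and 0.908. Kdm6a-208 was at 0 in all 10 KDM6ATubKO kidneys and above 0 in 5 of 10 KDM6ACtrl kidneys, at 15.8% to 84.5%.

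The sequences that tell apart transcripts with other coding sequences, whose shifts are described below, are given first. They are coding sequence of GENCODE transcripts on GRCm38, written 5′ to 3′, with bases that both transcripts of a pair share in lower case and those particular to the named transcript in capitals. Pyruvate kinase, which makes pyruvate at the end of glycolysis, holds 1 of a pair of exclusive exons of 167 bases, at chr9:59675029-59675195 (+) in Pkm-202 and at chr9:59675568-59675734 (+) in Pkm-201. The downstream one is the exon of the M2 form. The exons have the same base at 103 of 167 positions.
Pkm-202: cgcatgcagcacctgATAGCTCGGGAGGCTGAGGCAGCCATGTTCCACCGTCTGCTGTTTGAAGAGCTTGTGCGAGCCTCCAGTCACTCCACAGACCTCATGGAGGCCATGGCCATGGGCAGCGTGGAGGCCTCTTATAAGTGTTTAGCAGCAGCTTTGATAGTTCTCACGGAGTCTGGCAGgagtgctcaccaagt
Pkm-201: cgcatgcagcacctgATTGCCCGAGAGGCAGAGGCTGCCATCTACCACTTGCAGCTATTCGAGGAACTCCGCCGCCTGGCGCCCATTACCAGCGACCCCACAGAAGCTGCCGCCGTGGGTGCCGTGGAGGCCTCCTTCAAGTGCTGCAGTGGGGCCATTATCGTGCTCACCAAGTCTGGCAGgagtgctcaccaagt

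*Vcam1* encodes an adhesion receptor that binds leukocyte integrins. Vcam1-201 reads from exon 4 into exon 5 of 9 (first 60 bases shown, chr3:116121014-116121073, −), whereas Vcam1-203 reads into a last exon of its own with 107 coding bases (chr3:116123687-116123793, −) and encodes 345 amino acids in place of 739. In mouse a short form of the receptor that is held in the membrane by a lipid anchor is known. *Egfr* encodes the receptor for epidermal growth factor. Egfr-202 reads through the end of exon 16 for 40 further coding bases (chr11:16887186-16887225, +) and encodes 655 amino acids, without the kinase, and Egfr-201 continues into exon 17 (first 60 bases shown, chr11:16889913-16889972, +) and encodes 1210.
Vcam1-203: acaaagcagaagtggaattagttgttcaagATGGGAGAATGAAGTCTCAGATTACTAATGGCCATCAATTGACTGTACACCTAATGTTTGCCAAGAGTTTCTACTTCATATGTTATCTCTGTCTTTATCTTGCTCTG
Vcam1-201: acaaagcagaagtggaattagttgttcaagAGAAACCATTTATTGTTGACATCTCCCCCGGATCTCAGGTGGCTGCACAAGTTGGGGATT
Egfr-202: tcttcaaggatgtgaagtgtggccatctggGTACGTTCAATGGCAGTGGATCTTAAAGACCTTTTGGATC
Egfr-201: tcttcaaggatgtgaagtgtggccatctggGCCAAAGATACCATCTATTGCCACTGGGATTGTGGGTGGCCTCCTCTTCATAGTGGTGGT

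*Slco3a1*, an organic anion transporter, and *Cp*, the copper-carrying ferroxidase ceruloplasmin, have transcripts with other coding ends. Slco3a1-201 keeps 134 coding bases (chr7:74284293-74284426, −) past a splice site that Slco3a1-202 uses to join 80 bases of a further exon (chr7:74276009-74276088, −), giving 710 and 692 amino acids. Cp-202 ends with 14 coding bases of exon 19 (chr3:19992509-19992522, +) and Cp-201 with 89 bases of another exon 19 (chr3:20005467-20005555, +), giving 1061 and 1085 amino acids. Ceruloplasmin is known as a secreted protein and, in rat, also as one with a longer end that is anchored in the membrane.
Slco3a1-201: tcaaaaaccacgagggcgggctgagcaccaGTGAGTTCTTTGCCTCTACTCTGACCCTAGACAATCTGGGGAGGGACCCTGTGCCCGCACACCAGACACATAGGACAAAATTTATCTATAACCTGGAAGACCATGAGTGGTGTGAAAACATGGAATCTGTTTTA
Slco3a1-202: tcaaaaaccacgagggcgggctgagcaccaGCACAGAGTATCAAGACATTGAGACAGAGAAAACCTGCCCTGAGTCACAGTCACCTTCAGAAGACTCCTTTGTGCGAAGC
Cp-202: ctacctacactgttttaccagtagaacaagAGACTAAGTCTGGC
Cp-201: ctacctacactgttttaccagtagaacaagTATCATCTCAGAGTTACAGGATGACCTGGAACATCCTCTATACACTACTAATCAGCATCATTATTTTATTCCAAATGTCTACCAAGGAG

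*Nr1h4* encodes the bile acid receptor FXR. Nr1h4-201 and Nr1h4-203 start at promoters that lie 26936 bases apart, and so begin the protein differently, with 109 coding bases at chr10:89506508-89506616 (−) in the former and 67 at chr10:89516437-89516503 (−) in the latter. Nr1h4-203 also keeps 12 bases (chr10:89483372-89483383, −) at the end of an exon, and these are shown with their surroundings.
Nr1h4-201: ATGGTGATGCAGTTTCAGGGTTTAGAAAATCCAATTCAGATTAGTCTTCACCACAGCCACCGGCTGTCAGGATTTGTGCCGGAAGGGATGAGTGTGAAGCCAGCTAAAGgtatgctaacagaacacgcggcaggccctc
Nr1h4-203: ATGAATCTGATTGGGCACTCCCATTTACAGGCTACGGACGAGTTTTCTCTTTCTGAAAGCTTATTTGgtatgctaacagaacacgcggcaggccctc
Nr1h4-203: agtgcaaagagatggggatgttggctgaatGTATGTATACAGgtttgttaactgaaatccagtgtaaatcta

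*Dnm2* encodes dynamin, the enzyme that pinches vesicles off the cell membrane, and *Ascc2* a subunit of a complex that acts in RNA quality control and repair. Dnm2-204 holds an exon of 12 bases (chr9:21490658-21490669, +) that Dnm2-202 skips, and the joined sequence of the latter is shown for comparison. Ascc2-201 holds an exon of 120 bases (chr11:4673328-4673447, +).
Dnm2-204: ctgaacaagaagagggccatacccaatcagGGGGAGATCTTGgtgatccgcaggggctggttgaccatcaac
Dnm2-202: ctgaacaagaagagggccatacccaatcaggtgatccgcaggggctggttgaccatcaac
Ascc2-201: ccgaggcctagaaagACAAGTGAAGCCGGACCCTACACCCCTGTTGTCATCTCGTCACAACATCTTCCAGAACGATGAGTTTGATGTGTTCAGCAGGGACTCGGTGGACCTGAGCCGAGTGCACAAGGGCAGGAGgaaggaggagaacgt

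Shares were tested in 5973 genes whose summed FPKM averaged at least 1 in the sham and at least 1 in the UUO kidneys. Of the other member genes, 414 were under this level in sham kidneys only, 42 in UUO kidneys only and 31 in both. Within the genes kept, 14315 transcripts with a mean share of at least 5% were tested and 3469 below it were not. After UUO 486 transcripts rose (3.4%) and 483 fell (3.37%), together 969 or 6.77% of those tested, by at least 10 percentage points at an adjusted p under 0.05 (limma on the arcsine square root of the share, Benjamini-Hochberg over all 14315). They lie in 612 genes, 10.2% of those tested, and in 338 of these genes 1 transcript rose while another fell. Shares are parts of a whole, so in a gene with 2 listed transcripts a rise of 1 is an equal fall of the other. The adjusted p alone was passed by 1418 transcripts (9.91%). Without KDM6ATubKO UUO mouse 4, 564 genes were called. All 969 had the same direction in both genotypes, and 804 of them moved by at least 10 points in each. They were picked on the difference over these same kidneys, which averages the genotypes, so this agreement largely follows from the selection. Fitted within KDM6ACtrl or KDM6ATubKO kidneys alone, 122 and 120 of the 969 were called in the same direction.

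Shares estimated from assembled transcripts were variable between kidneys of the same surgery. The median SD within a surgery was 14.4 points over all tested transcripts and 12 points over the called ones, and 21.9% of share values lay under 1% or over 99%, 10.6% being exactly 0. Within 1 surgery 27.7% of tested and 18.5% of called transcripts ranged over more than 80 points. The description therefore leads with transcripts whose 10 UUO kidneys and 10 sham kidneys did not overlap. Such separation was seen for 110 transcripts (0.768% of those tested). Of these, 75 were also called (0.524%, 37 higher and 38 lower), in 55 genes (0.921% of tested genes), with a median SD of 5.7 points. Without KDM6ACtrl UUO mouse 3 there were 122 called transcripts of this kind. The median difference between the surgeries was 6.33 points over all tested, and 20.3 points over called transcripts.

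**Figure D1:**
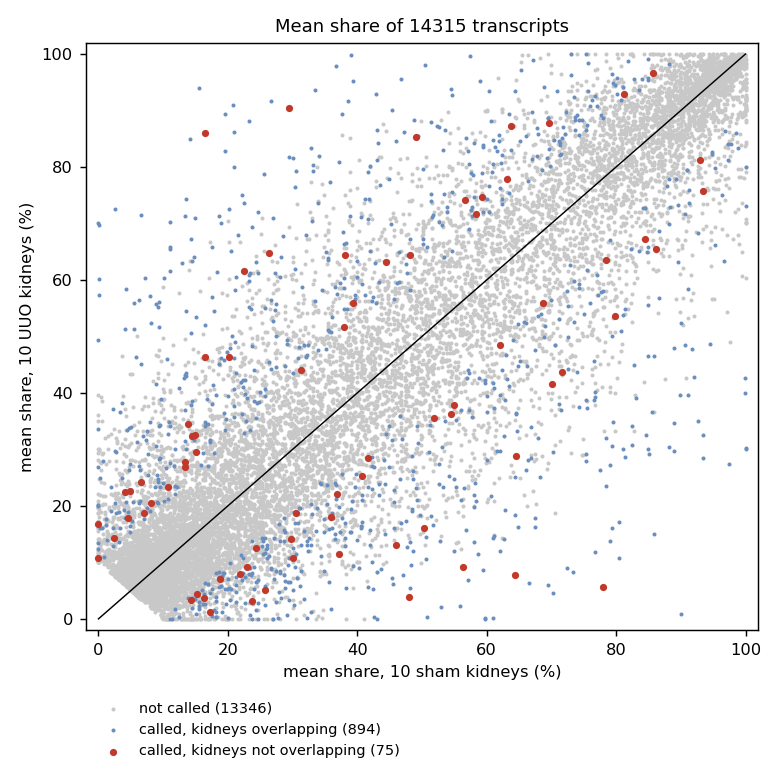
Mean share in percent of each of 14315 tested transcripts, over 10 sham kidneys (x axis) and 10 UUO kidneys (y axis). Points on the line did not differ, blue points are called transcripts whose kidneys overlap between the surgeries, and red points are the 75 called transcripts whose kidneys do not overlap, which lie on either side of the line.

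The transcript that gained most and the one that lost most were compared in structure, gene by gene, where both match the annotation. Of 585 called genes 52.3% changed between transcripts with first exons that do not touch, against 43.4% of all 4868 tested genes with such a pair. Another last exon was involved in 26.3% against 21%, and in 33.5% against 43.6% the first exons and the last exons overlapped while introns differed. Pairs of the last kind can still differ in where they start or end. Among the 49 genes with a called transcript without overlap these values were 55.1%, 46.9% and 16.3%. The coding parts of both transcripts have the same coordinates in 22.9% of called and 24.3% of tested genes. Pairs with other coordinates, such as that of *Gmfg* below, can still encode proteins of the same length. The gaining transcript was the longer one in 57.6% of called and 56.1% of tested genes. Where first exons differed, the gaining transcript started downstream in 59.8% of called and 54.2% of tested genes. These are descriptions without a test, and the values of all tested genes come from the same kidneys.

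**Figure D2:**
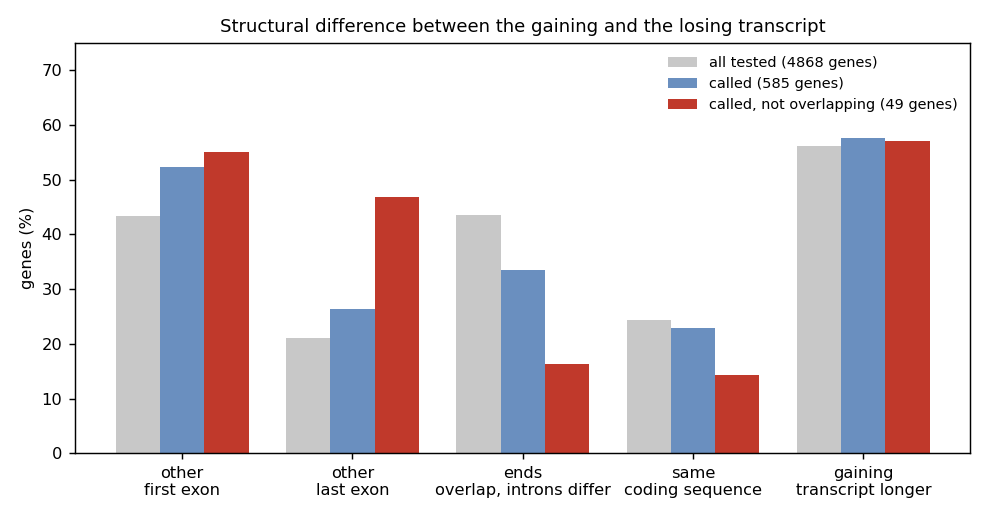
Percent of genes (y axis) in which the transcript that gained most share and the one that lost most differ in the way named on the x axis, for all tested genes, called genes and genes with a called transcript whose kidneys do not overlap. Other first and other last exons take larger percentages of the called than of all tested genes (52.3% against 43.4%, and 26.3% against 21%), pairs with overlapping first and last exons but other introns a smaller one (33.5% against 43.6%).

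Changes of start site made up several of the clearest shifts. *Gmfg* encodes a regulator of actin branching found mainly in blood cells. Gmfg-201 held 16.2% to 42.3% of the gene's FPKM in the sham kidneys (median 26.6%) and 58.8% to 76.7% in the UUO kidneys (median 63.3%). The surgeries did not overlap, and the share rose by 38.5 points ± 2.89 (SE, adjusted p = 1.68e-06, limma). Gmfg-203, which starts 3480 bases upstream, fell by 35.8 points ± 2.59, also without overlap. The start codon lies at the end of the first exon of either, and both encode 142 amino acids. Summed over transcripts the gene stood at 15.6 FPKM in sham and 61.5 FPKM in UUO kidneys.

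*Tnfaip3* encodes a ubiquitin-editing enzyme that restrains NF-κB signalling. Tnfaip3-201 made up 29.3% to 100% of the gene in sham kidneys (median 95.2%) and 0% to 23.9% in UUO kidneys (median 4.12%). Tnfaip3-202, which starts 3447 bases downstream, lay at 0% to 63.6% (median 0%) and 75.1% to 99.1% (median 87.1%). Neither overlapped between the surgeries, with differences of −72.3 points ± 8.79 (adjusted p = 0.000185) and 69.5 points ± 9.08 (adjusted p = 0.000328). The coding sequence, of 775 amino acids, is the same. The gene was low in sham kidneys, at a summed mean of 1.07 FPKM, against 5.76 FPKM after UUO.

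*Spp1* encodes osteopontin, a secreted glycoprotein of injured tubules and macrophages. Spp1-204 held 2.27% to 82.5% (median 7.29%) of the gene in sham kidneys and 87.6% to 94.6% (median 90.4%) in UUO kidneys. It rose by 61 points ± 11 (SE, adjusted p = 0.00112) and Spp1-201 fell by 56.5 points ± 10, both without overlap. The transcripts start 1074 bases apart on chromosome 5 and encode the same 294 amino acids. *Havcr1*, the tubule injury marker KIM-1, showed a like picture with overlap. Havcr1-203 ranged from 0% to 100% (median 0%) in sham kidneys, where the gene was at a mean of 7.47 FPKM, and from 96.5% to 98.7% in UUO kidneys, where it was at 520 FPKM (61.2 points ± 15.5, adjusted p = 0.0108). That sham mean rested on KDM6ACtrl sham mouse 3. Without this mouse the sham kidneys averaged under 1 FPKM and the gene was not tested, so most sham shares are those of a nearly silent gene.

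*Rtn4* encodes the reticulons known as Nogo-A, Nogo-B and Nogo-C, proteins that shape the endoplasmic reticulum. Rtn4-201, the short form of 199 amino acids with a promoter of its own (Nogo-C), held 29.9% to 93.4% (median 52.3%) in sham and 4.41% to 16.4% (median 8.29%) in UUO kidneys. It fell by 47.1 points ± 6.99 without overlap (adjusted p = 0.000238). Rtn4-205 and Rtn4-202 rose, the latter starting 25616 bases upstream of Rtn4-201. Rtn4-205, of 1162 amino acids (Nogo-A), went from a median of 6.24% to 32.5% (21.5 points ± 4.28, adjusted p = 0.00263). Rtn4-202, of 356 amino acids (Nogo-B), went from 11.5% to 38.7% (23.6 points ± 7.44, adjusted p = 0.038), and 14 of the 20 fits that leave out 1 kidney lost its call (adjusted p up to 0.0707). The gene's summed mean was 26.8 FPKM in sham and 28.7 FPKM in UUO kidneys.

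*Nr1h4* moved in the direction of its upstream promoter. Nr1h4-201 held 60.7% to 84.4% (median 68.4%) of the gene in sham kidneys and 18.2% to 58% (median 43.1%) in UUO kidneys, without overlap (−28.5 points ± 3.84, adjusted p = 0.000258). Nr1h4-203, with the 12 bases shown above, rose from a median of 27.6% to 54.8% (29.9 points ± 4.15, adjusted p = 0.000313), with ranges that met at 35.9% in the lowest UUO and 38.2% in the highest sham kidney. By mean share the main transcript changed, although Nr1h4-201 was still the larger in 3 of 5 KDM6ACtrl UUO kidneys. The summed mean was 74.3 FPKM in sham and 35.1 FPKM in UUO kidneys.

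**Figure D3:**
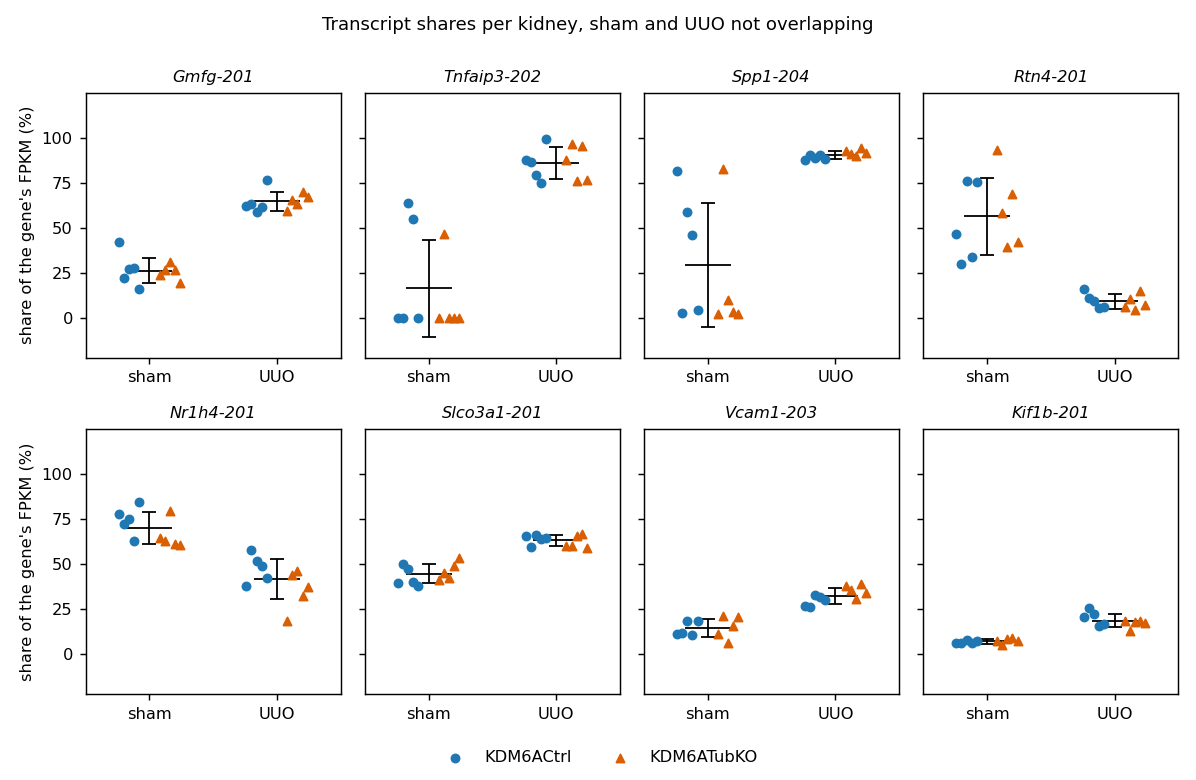
Share of the gene's summed FPKM (y axis, percent) of 8 transcripts in each of 20 kidneys, by surgery (x axis). Circles are KDM6ACtrl and triangles KDM6ATubKO kidneys, and bars give the mean and SD of 10 kidneys. The sham and UUO kidneys do not overlap in any panel, while the sham spread is wide for Tnfaip3-202 and Spp1-204 and narrow for Kif1b-201 (5.06% to 8.82%).

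Other start-site shifts without overlap concerned signalling proteins. *Rcan1* encodes an inhibitor of the phosphatase calcineurin. Rcan1-201, which starts inside the gene (chr16:92391953-92400077, −, against 92391953-92466146 for Rcan1-202), rose from 74.5% to 88% (median 81.8%) in sham to 89.3% to 97.9% (median 93.2%) in UUO kidneys, a difference of 11.8 points ± 1.83 (adjusted p = 0.000902). *Prkcz* encodes an atypical protein kinase C of epithelial polarity. Prkcz-202, which starts 15589 bases downstream and encodes 409 in place of 592 amino acids, rose from a median of 64.2% (56.6% to 67.6%) to 78.6% (68.3% to 86.1%). Its difference was 14.7 points ± 1.47 (adjusted p = 0.000652). The short product is the form without the regulatory part, known from brain as PKM zeta. *Prkcz* was chosen after its values were seen, as was *Vcam1*.

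*Tank* and *Nck1*, adaptors of innate immune signalling and of receptor tyrosine kinases, changed too. Tank-204 fell from 11.8% to 75.2% (median 54.8%) in sham to 0.089% to 10.4% (median 2.65%) in UUO kidneys (−44.2 points ± 6.05, adjusted p = 5.62e-05). Tank-201, starting 14511 bases upstream, rose by 50.1 points ± 9.98 with overlap, since 1 sham kidney stood at 63.2% and the other 9 at 0%. Nck1-201, which encodes 313 amino acids, rose from a median of 53.1% (0.101% to 72.7%) to 85.5% (80.9% to 87.9%), and Nck1-202, which encodes 377, fell from 41.1% to 12.8%. *Hsd11b1*, which regenerates active glucocorticoid, gained the transcript of its full protein. Hsd11b1-205, of 292 amino acids, rose by 22.7 points ± 6.88 (adjusted p = 0.0116), and Hsd11b1-202, of 214, fell from a median of 15% to 1.19% without overlap (−16 points ± 2.47, adjusted p = 2.88e-05).

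Some shifts lay between transcripts whose coding sequences end differently, while the proteins themselves were not measured. For *Slco3a1*, Slco3a1-201 held 38.1% to 53.6% (median 43.5%) in sham and 59.1% to 66.9% (median 64.1%) in UUO kidneys. All UUO kidneys were higher, by 18.6 points ± 1.96 (adjusted p = 5.62e-05), and Slco3a1-202 fell by 18.3 points ± 1.98. The summed mean was 67.4 FPKM in sham and 58.7 FPKM in UUO kidneys, among the higher of the genes named here. For *Cp*, Cp-202 rose from 58.2% to 77.8% (median 72.8%) to 84.6% to 92% (median 87.2%), a difference of 18.1 points ± 2.58 (adjusted p = 0.000177). This is the transcript with the short coding end, and the gene's summed mean was 20.7 FPKM in sham and 202 FPKM in UUO kidneys. Cp-201 and Cp-204, which encode 1085 amino acids, fell by 5.18 and 7.16 points, under the 10 points of a call.

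In *Vcam1* the truncated transcript gained. Vcam1-203 held 6.45% to 21.1% (median 13.6%) in sham and 26.1% to 39.1% (median 32.4%) in UUO kidneys, without overlap (17.9 points ± 1.97, adjusted p = 0.000185). Vcam1-201 fell by 17.1 points ± 1.95 and remained the larger part in every kidney, at 60% or more. The gene's summed mean was 4.04 FPKM in sham and 196 FPKM in UUO kidneys. With the share replaced by a log2 ratio and a pseudocount of 1 FPKM, the call of Vcam1-203 was lost (adjusted p = 0.547).

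In *Egfr* the full-length transcript gained. Egfr-202, the truncated one, held 19.7% to 55.3% (median 40.7%) in sham and 8.72% to 25.7% (median 17.5%) in UUO kidneys. It fell by 24.1 points ± 3.45 (adjusted p = 0.000652), and the surgeries overlapped only through KDM6ACtrl sham mouse 4, since the other 9 sham kidneys lay at 38.5% or more. The gene's summed mean was 10.4 FPKM in sham and 9.66 FPKM in UUO kidneys. *Kif1b* and *Nectin2* changed by less, with small spread. *Kif1b* encodes a kinesin motor, and Kif1b-201, the shorter alpha form of 1150 amino acids, rose from 5.06% to 8.82% (median 7.19%) to 12.7% to 25.8% (median 18.2%), by 11.6 points ± 1.2 (adjusted p = 0.000258). *Nectin2* encodes an adhesion protein of cell junctions, and Nectin2-201, of 530 in place of 467 amino acids, rose from a median of 29.2% to 43.1% (12.8 points ± 1.38, adjusted p = 0.000651).

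Further transcripts without overlap belong to secreted proteins, enzymes and regulators. In *Pcsk5*, a protease that activates secreted precursors, Pcsk5-202 rose from a median of 19% (12.8% to 32.4%) to 46.1% (33.6% to 60.6%), by 26.2 points ± 3.39 (adjusted p = 0.000651). In *Apoe*, the apolipoprotein of macrophages and lipid particles, Apoe-206 fell from a median of 42.9% (13.6% to 47.4%) to 11.8% (9.84% to 13.6%), while its coding sequence, of 311 amino acids, is the same as that of Apoe-209. In *Myc*, the growth-controlling transcription factor, Myc-206 rose from a median of 28.1% (0% to 49.2%) to 62.4% (55.1% to 67.5%), by 39 points ± 6.22 (adjusted p = 0.00369), in a gene of 3.23 FPKM in sham and 33 FPKM in UUO kidneys. Ppm1b-202, of a protein phosphatase, fell from a median of 78.8% (75.5% to 81.1%) to 63.2% (55.7% to 70.8%), by 15 points ± 1.51 (adjusted p = 6.05e-05). Of the 20 genes with the largest called differences without overlap, the 9 not described, *Tmem79*, *Sra1*, *Pstk*, *Nol12*, *Mast3*, *Pde7b*, *Fgfr1*, *Pkig* and *Zfp710*, moved by 19.2 to 34.2 points. *Cp*, *Hsd11b1*, *Kif1b*, *Nectin2*, *Rcan1*, *Ppm1b* and *Ascc2* were taken as examples from 25 further genes without overlap and with at least 10 FPKM in both surgeries.

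Transcripts that differ in inner coding exons also moved, although the inclusion of the exons themselves was not computed. Ascc2-201, with the exon of 120 bases and an earlier end than Ascc2-202, fell from 32.5% to 47% (median 41.1%) to 18.6% to 31.4% (median 25.5%), without overlap (−15.5 points ± 1.78, adjusted p = 0.000678). Dnm2-204, with the exon of 12 bases and a last exon of its own, fell from a median of 22.9% to 6.04% (−15.3 points ± 3.25, adjusted p = 0.00272), and Dnm2-202, which skips it, rose from 33.1% to 48.3%. Both of these *Dnm2* transcripts overlapped in a few kidneys. Dnm2-211 and Dnm2-212, also tested, differed by 1 and −0.255 points and were not called. Whether they hold the exon of 12 bases was not examined. Pkm-201, with the M2 exon, rose from 40.7% to 91.3% (median 60.9%) to 54% to 97.8% (median 92%), and Pkm-202 fell from a median of 38.9% to 7.78% (−21.2 points ± 5.41, adjusted p = 0.00947). The M2 exon is the one used by most tissues other than muscle and brain, and by leukocytes and dividing cells.

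The transcript with the highest mean share differed between the surgeries in 849 genes, and in 128 (2.14% of tested genes) both the former and the latter were called. In 7 of the 128, both were also without overlap. *Tnfaip3*, without overlap, was among the 10 largest of these changes. *Apbb2* encodes an adaptor of the amyloid precursor protein, and Apbb2-210, with a cassette exon of 63 bases (chr5:66392273-66392335, −), lay between 0% and 5.66% in the sham kidneys with a share. In the UUO kidneys it ranged from 3.26% to 100% with a median of 100%, a difference of 73 points ± 15 (adjusted p = 0.00365). The fit used the 17 kidneys in which the gene was above 0. Those without a share were KDM6ATubKO UUO mice 1, 2 and 4, so that group held mice 3 and 5 alone. KDM6ACtrl UUO mice 1 and 3 lay at 3.3% and 4.3%, within the sham range. The exon, in capitals between its neighbours, reads:
Apbb2-210: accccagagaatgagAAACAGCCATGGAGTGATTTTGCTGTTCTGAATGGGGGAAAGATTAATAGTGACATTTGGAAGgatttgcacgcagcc

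*Wnt5b*, a secreted Wnt ligand, and *Rassf5*, a Ras effector, had values of the same kind. Wnt5b-204 was at most 0.0141% in sham kidneys and ranged from 0% to 100% (median 100%) after UUO (70 points ± 15.5, adjusted p = 0.00542). Rassf5-202, of 265 in place of 413 amino acids, is the form known from lymphocytes as RAPL. It ranged from 0% to 98.4% (median 2.47%) in sham and from 42.2% to 100% (median 99.5%) in UUO kidneys (65.3 points ± 10.6, adjusted p = 0.000572). In such genes single kidneys put nearly all of a gene's FPKM on 1 transcript or on the other. The other 6 of the 10 largest changes of main transcript, in *Pld1*, *Cyfip2*, *Rapgef2*, *Mfsd10*, *Spata2l* and *Skida1*, had a called transcript that moved by 64.9 to 70.8 points. At 5 FPKM or more in both surgeries, 85 genes with a change of main transcript were left.

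**Figure D4:**
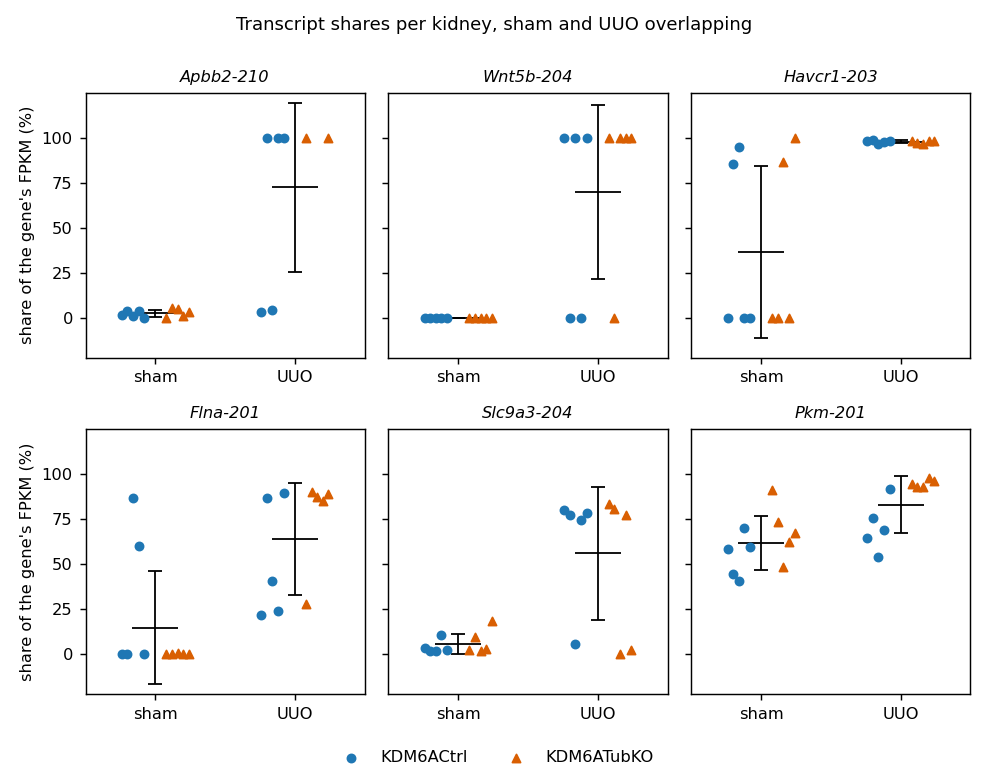
Share of the gene's summed FPKM (y axis, percent) of 6 transcripts whose sham and UUO kidneys overlap, in each of 20 kidneys (x axis: surgery). Circles are KDM6ACtrl and triangles KDM6ATubKO kidneys, and bars give the mean and SD of the kidneys with a share. Single kidneys sit near 0% or near 100%, as for Apbb2-210 after UUO (3.26% to 100%) and Havcr1-203 after sham surgery (0% to 100%).

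Gene lists were read against the 10.2% of all tested genes with a called transcript, whose median largest difference was 8.09 points. Of 21 tested tubule injury genes 6 were called (28.6%, median 8.54 points): *Cp*, *Egfr*, *Havcr1*, *Myc*, *Spp1* and *Vcam1*. Of 29 genes known to be spliced differently in epithelial and mesenchymal cells 7 were called (24.1%, median 10.5 points), with the largest differences in *Fgfr1*, *Macf1*, *Dnm2* and *Ctnnd1*. *Fgfr2*, the classic member of that list, was not, with Fgfr2-211 at a mean of 62.8% in sham and 80.8% in UUO kidneys (adjusted p = 0.337). A call in this list can concern any listed transcript. Whether the called transcripts differ in the exons known to be spliced differently in these cells was not examined. In *Fgfr1* and *Macf1* the transcripts that gained and lost most have other first exons. Fgfr1-212, the one that lost most in *Fgfr1*, encodes only 50 amino acids. Ctnnd1-205, of the junction protein p120 catenin, fell by 13.8 points ± 5.14 (adjusted p = 0.0356), and its call was lost with the plain share (adjusted p = 0.0915), with a covariate for the number series to which a mouse identifier belongs (adjusted p = 0.0554) and in 10 of 20 fits without 1 kidney (differences down to −9.65 points).

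Of 34 cytoskeleton and matrix genes 7 were called (20.6%, median 13.6 points), among them the actin crosslinker *Flna*, whose full-length Flna-201 of 2647 amino acids ranged from 0% to 86.6% (median 0%) in sham and from 21.9% to 89.8% (median 85.8%) in UUO kidneys (49.4 points ± 14.4, adjusted p = 0.00986). Of 33 immune genes 7 were called (21.2%, median 8.48 points). Nfkb1-203, of 533 in place of 971 amino acids in Nfkb1-206, rose from a median of 42% (19.2% to 61.9%) to 75.2% (60.8% to 82.5%), by 33.2 points ± 4.39 (adjusted p = 0.000376). The gene encodes an NF-κB subunit that is processed from a longer precursor. Nfkb1-203 starts 59529 bases downstream of Nfkb1-206 and lacks exons 1 to 10 of the latter, so the start of its coding sequence is missing. Fcgr3-204, of an antibody receptor of macrophages, rose by 52.7 points ± 12.3 (adjusted p = 0.00745, 18 kidneys with a share). It ranged from 0% to 92.7% in sham and from 46.7% to 87.6% in UUO kidneys, with overlap. The gene summed to 0 in KDM6ACtrl sham mouse 5 and KDM6ATubKO sham mouse 3, which have no share. Cxcl12-203, the beta form of a chemokine of stromal cells, fell by 34.5 points ± 11 (adjusted p = 0.0447) and lost its call in 14 of 20 fits without 1 kidney (adjusted p up to 0.0809) and with the number series as a covariate (adjusted p = 0.0684).

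Of 38 kidney transport genes 6 were called (15.8%, median 6.55 points). Slc9a3-204, of the sodium-hydrogen exchanger of the proximal tubule brush border, rose from a median of 2.66% (1.8% to 18.6%) to 77.3% (0% to 83.2%), and Slc9a3-203 fell from 95% to 18.7% (−51.3 points ± 13, adjusted p = 0.0203), while the gene was at 18.1 FPKM in sham and 3.78 FPKM in UUO kidneys. Slc4a2-201, of an anion exchanger, rose from a median of 51.5% to 87.5% (34.4 points ± 7.05, adjusted p = 0.00291). Casr-201, of the calcium-sensing receptor, rose by 39.3 points ± 10 over both genotypes (adjusted p = 0.00735). In KDM6ACtrl kidneys it rose by 59.3 points from a sham range of 20% to 36.3%. In KDM6ATubKO kidneys 4 of 5 sham values already lay at 87.6% to 100%, and the difference of 19.4 points was not called (adjusted p = 0.332, interaction adjusted p = 0.825). Casr-201 also lost the call where 1 FPKM was added to a log2 ratio (adjusted p = 0.104). Of 29 nephron transcription factors 4 were called (13.8%, median 5.88 points), among them *Nr1h4* and *Ppara*, the regulator of fatty acid oxidation. Ppara-201 fell from a median of 49.7% to 3.94% (−32.2 points ± 8.03, adjusted p = 0.0376), and lost its call in 13 of 20 fits without 1 kidney (adjusted p up to 0.0689).

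Of 50 splicing regulators 8 were called (16%, median 8.81 points), with the largest differences in *Luc7l2*, *Sf1*, *Tra2a* and *Hnrnpdl*. Luc7l2-207 fell from a median of 64.7% to 0% (−44.4 points ± 11.5, adjusted p = 0.012). Hnrnpdl-207, of 322 in place of 420 amino acids, rose from 49.3% to 73.6% (19.7 points ± 5.03, adjusted p = 0.0145). Sf1-202 rose by 31.7 points ± 9.92 (adjusted p = 0.0398) and Tra2a-204 by 28.4 points ± 8.23 (adjusted p = 0.0477), and their calls were lost in 15 and 14 of 20 fits without 1 kidney and with the number series as a covariate (adjusted p = 0.052 and 0.0722). The difference of Sf1-202 was 54.5 points in KDM6ACtrl and 8.9 points in KDM6ATubKO kidneys, where it was not called (adjusted p = 0.813), with an interaction adjusted p of 0.643. All 4 overlapped between the surgeries. Of 36 energy metabolism genes 1, *Pkm*, was called (2.78%, median 6.07 points). The adjusted p in limma was passed by 0 of 16 cell death and p53 genes (median 7.87 points). It was also passed by 0 of 15 genes of H3K27 methylation and the KDM6A family (median 11.4 points), against 901 of all 5973 tested genes. An unadjusted p under 0.05 was seen for 2 of the 16 and 5 of the 15, beside 2048 of the 5973. With so few genes in a list, a count of 0 sets it little apart from all tested genes. Stress response (3 of 20, 15%) and hypoxia and VEGF genes (1 of 9, 11.1%) were the other lists.

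**Figure D5:**
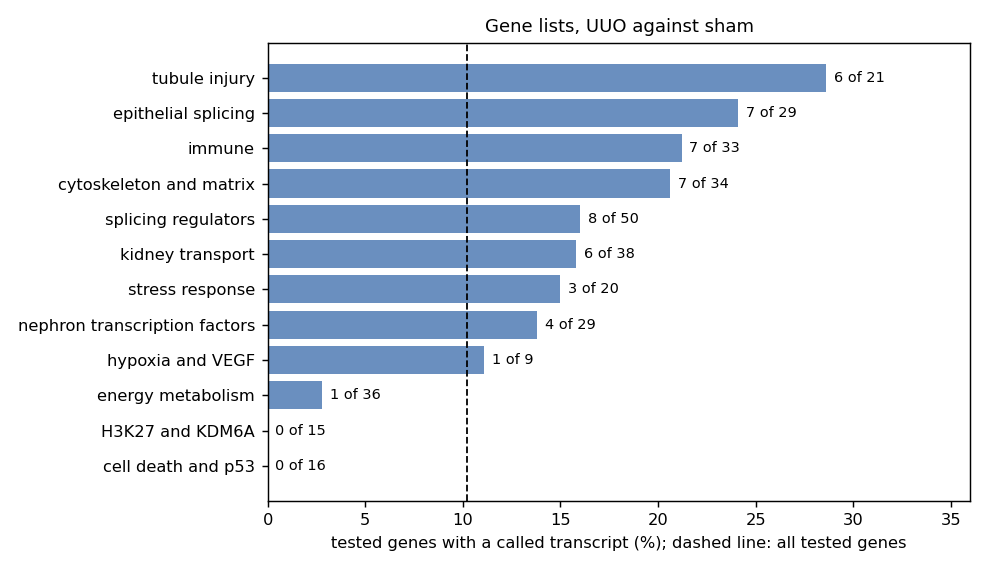
Percent of tested genes of each list with a called transcript (x axis), with the count called and tested beside each bar and the 10.2% of all tested genes as a dashed line. Tubule injury genes (6 of 21) have the highest percentage, and cell death and H3K27 genes have no called member.

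The size of the shift was also compared between genotypes. The interaction of genotype and surgery passed an adjusted p under 0.05 for 3 transcripts of 2 genes (0.021% of tested transcripts), and 932 transcripts had an unadjusted p under 0.05. Without 1 kidney this count ran from 0 to 10, so it rests on single kidneys. *Stat5b* encodes a transcription factor of cytokine signalling, and Stat5b-202 averaged 9.54% ± 21.2 (SD, n = 5) in KDM6ACtrl sham, 0.174% ± 0.199 in KDM6ACtrl UUO, 0.117% ± 0.168 in KDM6ATubKO sham and 86.5% ± 29.6 in KDM6ATubKO UUO kidneys (interaction adjusted p = 0.0223, limma). Genotype itself, over both surgeries, passed for 48 transcripts (0.335%) in 36 genes, beside the higher percentage of transcripts at 0 in all KDM6ATubKO kidneys given above, whose part was not tested.

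Fitted on the 10 KDM6ACtrl or the 10 KDM6ATubKO kidneys alone, 134 and 101 genes were called. Of 61 called transcripts followed through all alternatives, 60 were tested within each genotype, and 26 and 25 were called there. The mouse identifiers in the labels fall into a lower and a higher number series, and within these 27 and 103 genes were called. Of the followed transcripts, 6 of 60 tested in the lower and 11 of 61 in the higher series were called there. Under all alternatives in which they were tested, 3 of the 61 kept their call. They were Gmfg-201 and Gmfg-203, of the same gene, and Hsd11b1-202. Every other followed transcript lost its call in at least 1 alternative. None of the 969 transcripts turned its direction in any of these fits where it was tested. The fits within a genotype or number series use part of the kidneys on which the 969 were picked, and are not independent of it. The p-values measure the spread between mice, of which 1 library each was made, and FPKM hold no counts, so that the counting error of a share is unknown. Several mice share the leading number of their identifier, and each leading number lies within 1 group. The labels do not say what it stands for, the fits treat these mice as independent, and it cannot be told apart from surgery.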

How the data were processed

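RNA of 20 left kidneys was sequenced after oligo(dT) selection with a stranded kit. Per the study's methods and the submitters' processing notes, the authors trimmed reads with cutadapt, aligned them to GRCm38 with HISAT2, assembled them with StringTie and computed FPKM with Ballgown; versions are not given in the sources used here. The deposited transcript table holds FPKM for 26228 transcripts; depth is unknown. Of these, 24892 (94.9%) matched GENCODE vM21 with their version, all at the same coordinates.

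The fits ran in limma 3.58.1 (R 4.3.3; data.table, version 1.17.8). Tables, sequences and plots were made with pandas 2.3.3, matplotlib 3.10.9 and numpy 2.4.6 under Python 3.11.15. The arcsine square root of each share was fitted on genotype and surgery, with a prior variance following the gene's mean log2(summed FPKM + 1). A kidney in which a gene summed to 0 was dropped for that gene, which touched 182 tested transcripts. Differences and their SE are least-squares values of the plain share in percentage points. Called transcripts had an adjusted p under 0.05 and at least 10 points. The method was tested on simulated data. Members and lists were chosen with earlier results of these data known. Named are the 20 genes with the largest called difference without overlap, the 10 largest changes of main transcript, *Kdm6a*, up to 4 called members of each list and, as examples, genes of at least 10 FPKM without overlap; values are given for a part of them. A called list member is not reported here. A planned comparison of transcript types could not be made, since every listed transcript is protein coding. The gene-level table was not used. Alternatives were other scales, filters, covariates and sample subsets.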

Additional observations from a re-analysis of the deposited data

Results flagged for a closer look

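Among the 61 called transcripts followed through all alternatives, single kidneys stood far from the other 9 of their surgery in 14 of 122 groups examined. Chance flags about 1 in 20 groups of independent, normally distributed values. These groups are neither, since they include mirrored transcripts of the same gene and many shares near 0% or 100%, so the count is not compared with chance. KDM6ACtrl sham mouse 4 stood apart in 3 of them: Egfr-201 was at 80.3% (others 44.7% to 61.5%), Egfr-202 at 19.7% (others 38.5% to 55.3%) and Dnm2-202 at 5.04% (others 30.4% to 41.4%). KDM6ATubKO sham mouse 3 had Luc7l2-207 at 0% (others 53.6% to 70.8%) and Nck1-202 at 99.9% (others 21.9% to 57%). KDM6ATubKO sham mouse 5 had Slc9a3-204 at 18.6% (others 1.8% to 10.7%) and Tank-201 at 63.2%, where the others were all at 0%, and KDM6ATubKO sham mouse 1 had Cxcl12-203 at 20% (others 55.9% to 92%).

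Among UUO kidneys, KDM6ACtrl mouse 4 had Hsd11b1-205 at 56.8% (others 82.5% to 98%) and Dnm2-204 at 19.5% (others 4.19% to 8.58%). KDM6ACtrl mouse 5 had Casr-201 at 40.5% (others 98.8% to 100%). KDM6ATubKO mouse 1 had Sf1-202 at 19.2% (others 53.1% to 77.3%), mouse 2 had Slc4a2-201 at 67.4% (others 82.6% to 95.4%) and mouse 3 had Tnfaip3-201 at 23.9% (others 0% to 8.15%).

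The shift after UUO differed between the genotypes by −95.7 points for Stat5b-201, by 95.7 points for Stat5b-202 and by −74.3 points for Birc6-202 (KDM6ATubKO minus KDM6ACtrl, interaction adjusted p = 0.0223 for each, limma). Stat5b-202 starts inside the gene, and both *Stat5b* transcripts encode 786 amino acids. Birc6-202, of a large inhibitor of apoptosis, averaged 24.1% ± 16.2 (SD, n = 5) in KDM6ACtrl sham kidneys, 95.3% ± 8.38 in KDM6ACtrl UUO, 99.5% ± 1.17 in KDM6ATubKO sham and 96.4% ± 5.23 in KDM6ATubKO UUO kidneys.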

How the results depend on the processing

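No called transcript turned its direction under any alternative in which it was tested. All alternatives use the kidneys on which these transcripts were called, or part of them. In place of 612 genes, 588 were called with the plain share, 627 with a log2 ratio at a pseudocount of 0.1 FPKM and 853 at 1 FPKM, 467 with a filter at 5 FPKM, 714 without a gene filter and 609 with a length trend removed. Within KDM6ACtrl kidneys 134 genes were called (94 transcripts higher, 97 lower, 183 called without overlap, 26 genes with a change of main transcript). Within KDM6ATubKO kidneys the values were 101, 82, 67, 147 and 24. Within the lower number series of mouse identifiers they were 27 genes, 17 and 20 transcripts and 37 without overlap, and within the higher one they were 103, 77, 72 and 137. At 20 points or more 318 genes, 246 transcripts higher, 246 lower and 24 without overlap were called; without a minimum difference 901 genes. A filter at 5 FPKM left 85 genes with a change of main transcript. Fewer kidneys overlap less often and give tests fewer samples; other causes were not tested.

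Without 1 kidney, 540 to 673 genes were called, with 409 to 529 transcripts higher, 423 to 529 lower, 78 to 122 without overlap (122 without KDM6ACtrl UUO mouse 3) and 107 to 138 genes with a change of main transcript. The interaction count of 3 became 7 with the number series as a covariate and ran from 0 to 10 without 1 kidney. It was 0 without KDM6ACtrl UUO mouse 1, 3 or 5 or KDM6ATubKO sham mouse 2 or 3, and moved by over 1.5 times without KDM6ACtrl sham mice 1 and 4, KDM6ACtrl UUO mice 2 and 4, KDM6ATubKO sham mice 1 and 5 and KDM6ATubKO UUO mice 1 to 4. Without KDM6ATubKO UUO mouse 4, which stood apart, 564 genes were called and 784 of the 969 transcripts kept their call. The summed shares by transcript type were not run. No paired analysis was possible because the labels give the groups no shared replicate numbers.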
